A study of Arabidopsis thaliana with 10 samples.

Results

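The HD2 proteins are a family of histone deacetylases found only in plants, and Arabidopsis thaliana has 4 of them. Their genes are HD2A (AT3G44750, also called HDA3), HD2B (AT5G22650), HD2C (AT5G03740) and HD2D (AT2G27840, also called HDT4), which are 4 of the 32824 genes in the deposited table. The family was chosen by its values in the comparison described here, so the differences of the 4 genes between genotypes are a description. A fit across all genes also includes them, and nothing is read from which of them passed its threshold. Transcripts were measured by RNA-seq in shoots of 10-day-old seedlings, with 5 libraries of the wild type Col-0 (WT) and 5 of a transgenic line (OE). OE overexpresses a trehalose-6-phosphate synthase of oilseed rape, BnaC02.TPS8, from the viral 35S promoter, which is active in most tissues. All seedlings grew on solid half-strength Murashige and Skoog medium with 1% sucrose and enough nitrogen. According to the series text, the comparison was made to find pathways regulated by TPS8. OE is 1 line, named O2 in the series text and OE-11 in the sample titles, and the labels do not settle which was sampled. Nor do they state that the 5 samples of a genotype grew in separate containers, and p-values therefore measure only the spread between these samples. Levels are labelled FPKM in the deposited data, a unit in which the fragments of a gene are divided by its transcript length and by the fragments of the library. In that unit, levels of different genes can be compared.

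Histone deacetylases remove acetyl groups from the lysines of histone tails, a change generally tied to tighter chromatin and lower transcription. The HD2 family was first found in maize as a protein of the nucleolus, the part of the nucleus where rRNA is made and ribosomes are assembled, and it is unrelated in sequence to the RPD3-like and sirtuin deacetylases that plants share with animals and yeast. HD2 proteins have a start related to the histone chaperone nucleoplasmin, followed by an acidic stretch, and HD2A and HD2C end in a zinc finger. HD2A acts in the silencing of rRNA genes, HD2A and HD2B act in leaf polarity, and HD2C acts in responses to abscisic acid, cold and heat.

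The stretches around the annotated starts of the 4 genes are shown because HD2 transcripts were measured side by side in the same libraries, so that the sequences upstream can be set beside their levels. Each runs 5′ to 3′ on the plus strand, from 250 bases before to 50 bases after the start in the RefSeq annotation of TAIR10.1, and lies at chr3:16297406-16297705 for HD2A, chr5:7533696-7533995 for HD2B, chr5:981609-981908 for HD2C and chr2:11861556-11861855 for HD2D. Capitals mark matches on either strand to the telo box AAACCCTA, to the site II elements TGGGCC and TGGGCT, which are frequent upstream of plant genes for ribosomal proteins, and to the TATA box TATAAA.
HD2A: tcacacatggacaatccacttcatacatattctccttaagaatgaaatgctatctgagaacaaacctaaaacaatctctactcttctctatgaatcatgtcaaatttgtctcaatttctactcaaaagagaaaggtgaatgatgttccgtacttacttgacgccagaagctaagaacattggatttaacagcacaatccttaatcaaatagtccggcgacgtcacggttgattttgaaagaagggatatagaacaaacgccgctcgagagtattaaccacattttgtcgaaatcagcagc
HD2B: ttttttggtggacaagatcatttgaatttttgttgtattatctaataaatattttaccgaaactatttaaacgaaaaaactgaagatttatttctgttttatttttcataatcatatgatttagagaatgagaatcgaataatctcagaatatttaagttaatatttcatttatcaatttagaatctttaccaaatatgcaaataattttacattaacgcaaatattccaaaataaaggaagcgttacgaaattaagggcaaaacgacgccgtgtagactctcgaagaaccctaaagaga
HD2C: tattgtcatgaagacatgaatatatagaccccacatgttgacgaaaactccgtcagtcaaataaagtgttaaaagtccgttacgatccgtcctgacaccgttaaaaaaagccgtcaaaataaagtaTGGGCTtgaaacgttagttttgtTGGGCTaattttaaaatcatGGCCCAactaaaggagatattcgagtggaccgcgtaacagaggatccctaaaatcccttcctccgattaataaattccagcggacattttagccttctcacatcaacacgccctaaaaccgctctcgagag
HD2D: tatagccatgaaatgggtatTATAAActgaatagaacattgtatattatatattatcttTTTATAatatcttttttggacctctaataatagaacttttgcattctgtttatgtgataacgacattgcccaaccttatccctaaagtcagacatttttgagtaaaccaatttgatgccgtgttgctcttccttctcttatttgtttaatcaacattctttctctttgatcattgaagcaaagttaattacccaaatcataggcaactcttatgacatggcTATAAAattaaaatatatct

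The windows of HD2A and HD2B held none of the 4 motifs, but both take in sequence of another gene. That of HD2A lies wholly inside AT3G44740 on the opposite strand. That of HD2B takes in the end of the gene emb1211, which stops 88 nt before HD2B. The window of HD2C held TGGGCT at 124 and 101 bases before the start and TGGGCC on the minus strand at 81 bases before it, read as GGCCCA on the printed strand, and no TATA box. That of HD2D held TATAAA at 230 bases before and at 30 bases after the start, and on the minus strand, read as TTTATA, at 191 bases before it. Positions are those of the first base of the match, no matches overlapped, and a match of letters is a description only. Among the windows of 27443 protein-coding genes, 6.22% held the telo box, 21.7% a site II element and 52.15% the TATA box. The share of G and C was 38.0% for HD2A, 26.3% for HD2B, 41.3% for HD2C and 29.0% for HD2D.

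The 4 genes lie apart from each other, all on the plus strand, on chromosomes 2, 3 and 5. HD2A (chr3:16297656-16299876) has 8 exons and 2 annotated transcripts, HD2B (chr5:7533946-7536496) has 9 exons and 2 transcripts, HD2C (chr5:981859-984289) has 8 exons and 1 transcript, and HD2D (chr2:11861806-11863908) has up to 8 exons and 4 transcripts. Coding lengths were 729 to 738 nt for HD2A, 918 to 921 nt for HD2B, 885 nt for HD2C and 435 to 612 nt for HD2D, the shortest of the family. No stretch of 31 nt was shared between transcripts of any 2 members. HD2A and HD2B each overlap a gene on the opposite strand: 20.4% of the 31-nt stretches of HD2A lie in AT3G44740, at its 5′ end, and 15.1% of those of HD2B lie in AT5G22660, at its 3′ end. HD2C and HD2D shared none with an overlapping gene. Whether the libraries kept the strand is not given in the sources used here, and without strand, reads from the shared stretches cannot be told apart. The partners were weak: AT3G44740 had 3.402 ± 0.72 FPKM in WT and 3.49 ± 0.28 in OE (SD, n = 5; log2 0.04, limma adjusted p = 0.907), and AT5G22660 stayed at or under 0.065 FPKM in all 10 libraries.

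**Figure D1:**
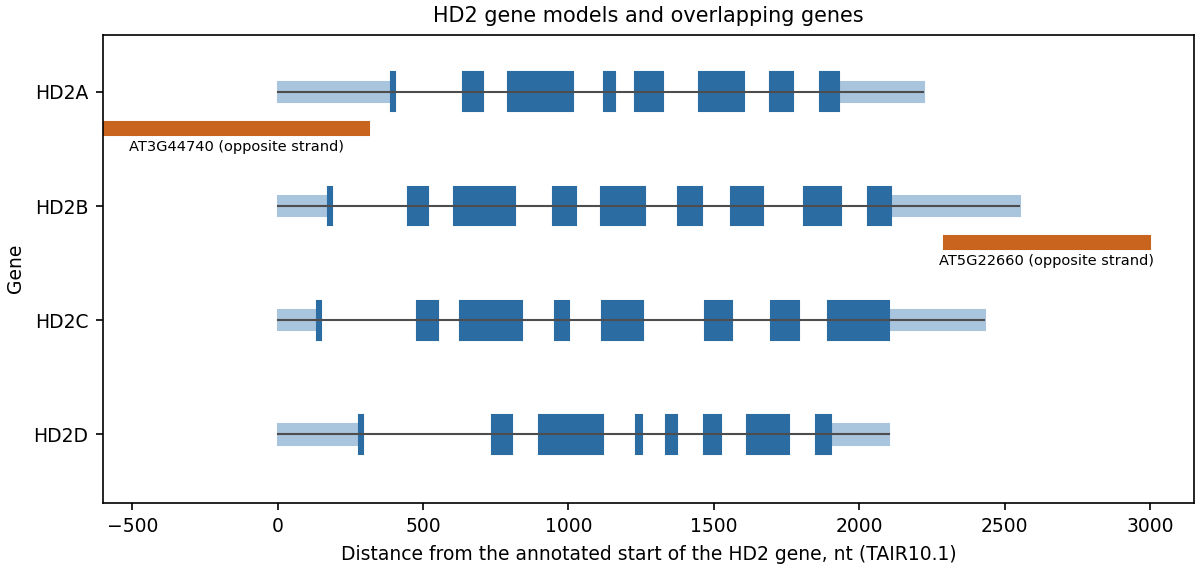
The longest annotated transcript of each of the 4 HD2 genes from the TAIR10.1 annotation, drawn from the annotated start (0) along the distance in nt; tall boxes are coding parts, low boxes untranslated parts and lines introns, and orange bars are overlapping genes on the opposite strand, which run past the drawn stretch. HD2A overlaps AT3G44740 at its 5′ end and HD2B overlaps AT5G22660 at its 3′ end, while HD2C and HD2D overlap neither neighbour.

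The deposited values summed to between 918877 and 996313 FPKM per library, and the table holds no counts, so the depth is unknown and no counting interval is given. Plastid genes took 0.442% to 4.28% of the summed FPKM, and the 3 highest shares were in WT replicates 2 and 4 and OE replicate 4. Leaf genes matched the shoot label, with LHCB1.3, a chlorophyll-binding protein of the light-harvesting antenna, at 31519 FPKM in WT and 31513 in OE, while 5 of 6 root markers averaged under 1 FPKM in both. The sixth, PYK10, a beta-glucosidase abundant in roots, had 126 ± 23.4 FPKM in WT and 122 ± 29.3 in OE (SD, n = 5).

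HD2A, which acts in silencing rRNA genes, had the largest difference of the family. Its level was 42.3, 36.8, 28.9, 40.2 and 33.9 FPKM in WT replicates 1 to 5. In OE replicates 1 to 5 it was 64.4, 73.9, 58.7, 58.8 and 63.9 FPKM. The lowest OE library stood well above the highest WT library, WT replicate 3 was the lowest of all and OE replicate 2 the highest. The mean went from 36.4 ± 5.31 FPKM in WT to 63.9 ± 6.18 in OE (SD, n = 5), 1.76 times as high, and the difference on the log2(FPKM + 1) scale was 0.80 (SE 0.10).

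HD2B, the most abundant member, had 82.5, 80.5, 71.6, 81.4 and 75.1 FPKM in WT replicates 1 to 5. In OE it had 106, 100.5, 99.3, 105 and 96.2 FPKM. The groups did not overlap, and the libraries of each genotype lay close together. The means were 78.2 ± 4.68 FPKM in WT against 101 ± 4.08 in OE (SD, n = 5), a ratio of 1.3 and a log2 difference of 0.37 (SE 0.06).

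HD2C, which acts in abscisic acid, cold and heat responses, had 35.0, 35.9, 33.4, 32.9 and 35.4 FPKM in WT replicates 1 to 5. In OE it had 44.2, 41.6, 37.5, 41.2 and 39.0 FPKM. The groups did not overlap, although OE replicate 3 came close to WT replicate 2. The means were 34.5 ± 1.3 FPKM in WT against 40.7 ± 2.58 in OE (SD, n = 5), a ratio of 1.18 and a log2 difference of 0.23 (SE 0.06).

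HD2D, the member of lowest level and shortest coding length, had 17.8, 16.3, 12.3, 12.4 and 12.2 FPKM in WT replicates 1 to 5. In OE it had 24.96, 25.6, 19.6, 18.1 and 16.1 FPKM. Here the groups overlapped, since OE replicate 5 lay below WT replicates 1 and 2, and replicates 1 and 2 were the highest in both genotypes. The means were 14.2 ± 2.65 FPKM in WT against 20.9 ± 4.23 in OE (SD, n = 5), a ratio of 1.47 and a log2 difference of 0.52 (SE 0.15).

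**Figure D2:**
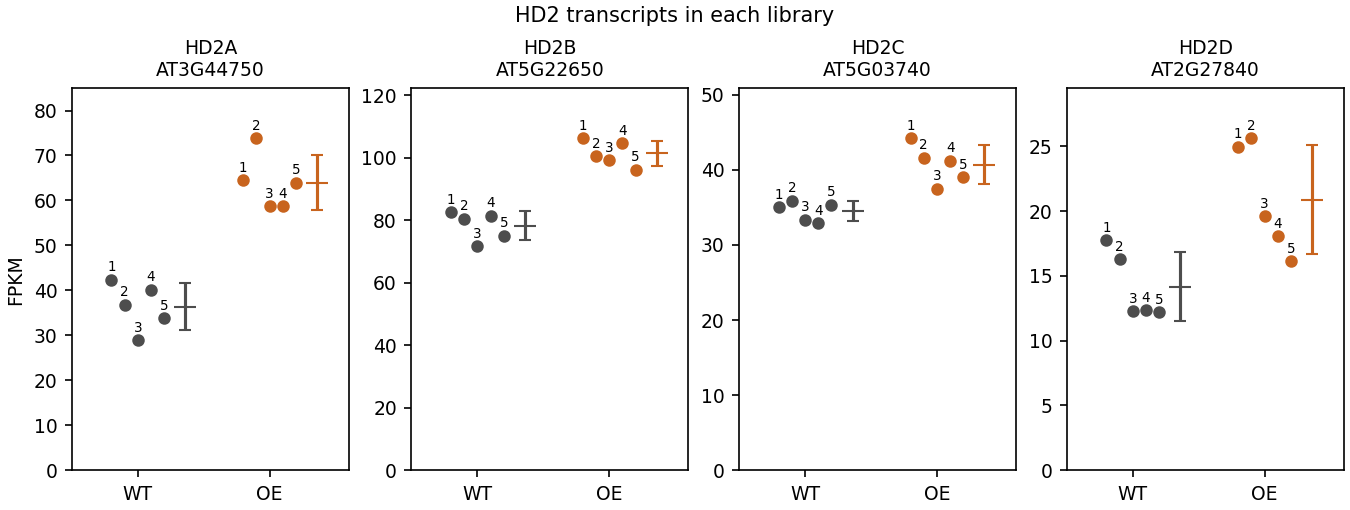
FPKM of each HD2 gene in the 5 WT and 5 OE libraries, each point 1 library with its replicate number; the bar is the mean and the error bar the SD. The OE libraries of HD2A, HD2B and HD2C all lie above the WT libraries, and those of HD2D overlap with them.

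All 4 members passed the filter on weak genes, a mean of 1 FPKM or more. In the fit across all genes (limma on log2(FPKM + 1), Benjamini-Hochberg adjusted p under 0.05), 2 of the 4 members, HD2A and HD2B, passed the threshold, both higher in OE. Of the 17713 tested genes, 2.89% passed, 2.37% higher and 0.525% lower in OE. An unadjusted p under 0.05 in this fit was found for 2682 of the 17713. The groups did not overlap, with OE higher, for 3 of the 4 members and for 4.41% of all tested genes. Since the family was chosen by this contrast, nothing is read from these counts. HD2A and HD2B passed at log2 differences of 0.80 and 0.37. HD2C, at 0.23, and HD2D, at 0.52, did not pass. Larger log2 differences than that of HD2A were found in 0.497% of the tested genes, than that of HD2D in 1.47%, than that of HD2B in 4.69% and than that of HD2C in 11.4%, while the median of all tested genes was 0.0032. Without WT replicates 2 and 4 and OE replicate 4, 0 members and 0 of all tested genes passed in limma, an unadjusted p under 0.05 was found for 1854 of the 17713 genes, and the log2 difference of HD2A was 0.89. In shoots, fewer cells of a type and less RNA per cell cannot be told apart, so the values are those of the whole organ.

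The 4 genes differed in how steady they were. With the genotype means removed, the SD of log2(FPKM + 1) was 0.07 for HD2B and for HD2C, 0.18 for HD2A and 0.26 for HD2D. Among the 8428 genes with a mean of 10 to 200 FPKM, whose median SD was 0.14, HD2B and HD2C stood at percentile 6.1, HD2A at 65.9 and HD2D at 85.8. The coefficient of variation in WT was 3.8% for HD2C and 18.7% for HD2D.

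HD2B had the highest level and HD2D the lowest, in WT and in OE. The 3 pairs next to each other in this order were compared within libraries by exact two-sided sign-flip permutation tests over 10 libraries, with Benjamini-Hochberg adjustment over the 3. HD2B exceeded HD2A by a log2 ratio of 0.88 ± 0.26 (SD), in 10 of 10 libraries (exact p = 0.00195, the smallest that 10 libraries can give, adjusted 0.00293). The ratio was 1.09 within WT and 0.66 within OE. HD2C exceeded HD2D by 1.10 ± 0.26, also in 10 of 10 (exact p = 0.00195, adjusted 0.00293), with 1.24 within WT and 0.95 within OE. Both orders held in 5 of 5 libraries of each genotype (exact p = 0.0625 in each by the same test, the smallest that 5 libraries can give). The order of the pairs was taken from the same levels, and all 3 take in the genotype differences by which the family was chosen. The p-values over 10 libraries are therefore descriptive. For HD2A and HD2C, whose order was not the same in every WT library, no p over 10 libraries is given. HD2A was higher in 3 of 5 WT libraries, by 0.06 ± 0.21, and in 5 of 5 OE libraries, by 0.64 ± 0.13. In WT, HD2A and HD2C did not differ beyond their spread (exact p = 0.438, where 5 libraries can give no less than 0.0625).

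The make-up of the HD2 transcript pool is described through the share of each member in the summed FPKM. HD2A made up 22.2% ± 1.78 of the pool in WT and 28.2% ± 1.86 in OE (SD, n = 5), and the ranges, 19.8% to 24.1% and 26.4% to 30.6%, did not overlap. The share of HD2C lay the other way, at 21.2% ± 1.5 in WT and 17.9% ± 0.588 in OE. Its ranges, 19.7% to 22.8% and 17.2% to 18.5%, did not overlap either. HD2B held 47.9% ± 1.03 in WT and 44.7% ± 2.08 in OE, and HD2D 8.64% ± 1.13 and 9.14% ± 1.37, both with overlapping ranges. The summed level was 178, 169, 146, 167 and 156 FPKM in WT replicates 1 to 5, and 239.9, 242, 215, 223 and 215 FPKM in OE. All 5 OE sums were above all 5 WT sums, with means of 163 ± 12.2 and 227 ± 13.0 FPKM. HD2A, of these, had a level 0.463 ± 0.0424 times that of HD2B in WT and 0.632 ± 0.0689 times in OE.

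**Figure D3:**
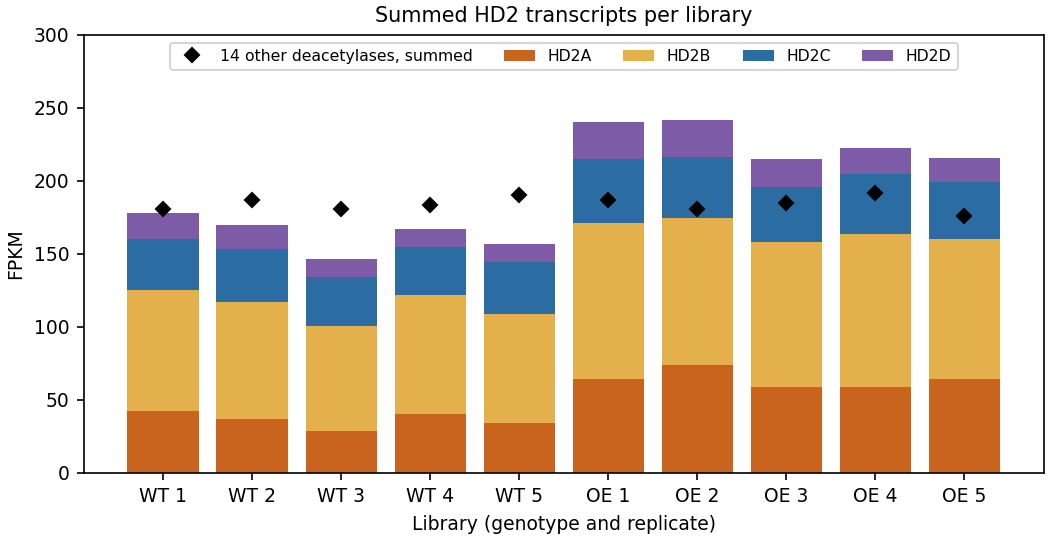
Stacked FPKM of the 4 HD2 genes in each of the 10 libraries, with the summed FPKM of the 14 other histone deacetylases as diamonds. The HD2 sum is 146 to 178 FPKM in WT and 215 to 242 in OE, while the diamonds stay between 176 and 192 in all libraries.

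No deacetylase of another family passed the threshold. The list holds the RPD3-like enzymes and the sirtuins, 14 genes, of which 10 were tested. An unadjusted p under 0.05 was found for 2 of these, HDA8 and HDA9, beside 2682 of all 17713 tested genes. By limma's adjusted p, 0 of the 10 rose and 0 fell, and 0 passed in any of the 20 other settings. Their median log2 difference was 0.01, with 5 above 0 and 5 below, and the 4 untested genes, HDA7, HDA10, HDA17 and HDA18, averaged under 1 FPKM. Their summed level was 184 ± 4.28 FPKM in WT and 184 ± 6.03 in OE (SD, n = 5), so that the HD2 sum was 0.886 ± 0.0722 times theirs in WT and 1.23 ± 0.0756 times in OE. HDA19, the most abundant of them and a general co-repressor enzyme, had 54.0 ± 2.71 FPKM in WT and 53.5 ± 4.29 in OE (log2 -0.01, limma adjusted p = 0.949). HDA14, an enzyme of the chloroplast, had 35.8 ± 0.706 and 35.6 ± 1.07 FPKM. HDA6, which like HD2A acts in silencing rRNA genes, had 13.8 ± 0.836 and 14.4 ± 0.460 FPKM (log2 0.06, limma adjusted p = 0.706).

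The other tested deacetylases were weaker. HDA15, which acts in light responses, had 19.1 ± 1.63 FPKM in WT and 19.98 ± 0.654 in OE, HDA8 17.1 ± 1.35 and 15.0 ± 1.11, HDA5 11.7 ± 1.68 and 11.6 ± 0.739, and HDA2 10.2 and 9.16. HDA9, which acts in flowering and leaf ageing, ranged from 7.77 to 9.04 FPKM in WT and from 8.39 to 12.7 in OE (log2 0.23, limma adjusted p = 0.292), and its near-identical copies HDA10 and HDA17 make the split of reads among them uncertain. The sirtuins SRT2 and SRT1 had 10.8 ± 0.971 and 11.02 ± 0.725 FPKM, and 2.89 ± 0.385 and 3.09 ± 0.682 FPKM. The log2 differences of the 10 genes ran from -0.18 for HDA8 to 0.23 for HDA9. Among the histone acetyltransferases, which add the groups that deacetylases remove, 10 of 12 were tested, and 0 rose and 0 fell by limma's adjusted p. Of these, 1 (HAG3) reached an unadjusted p under 0.05, beside 2682 of all 17713 tested genes. The median log2 difference of the list was -0.08. The most abundant, HAM1, had 19.98 ± 2.66 FPKM in WT and 19.4 ± 1.44 in OE (log2 -0.03, limma adjusted p = 0.903).

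**Figure D4:**
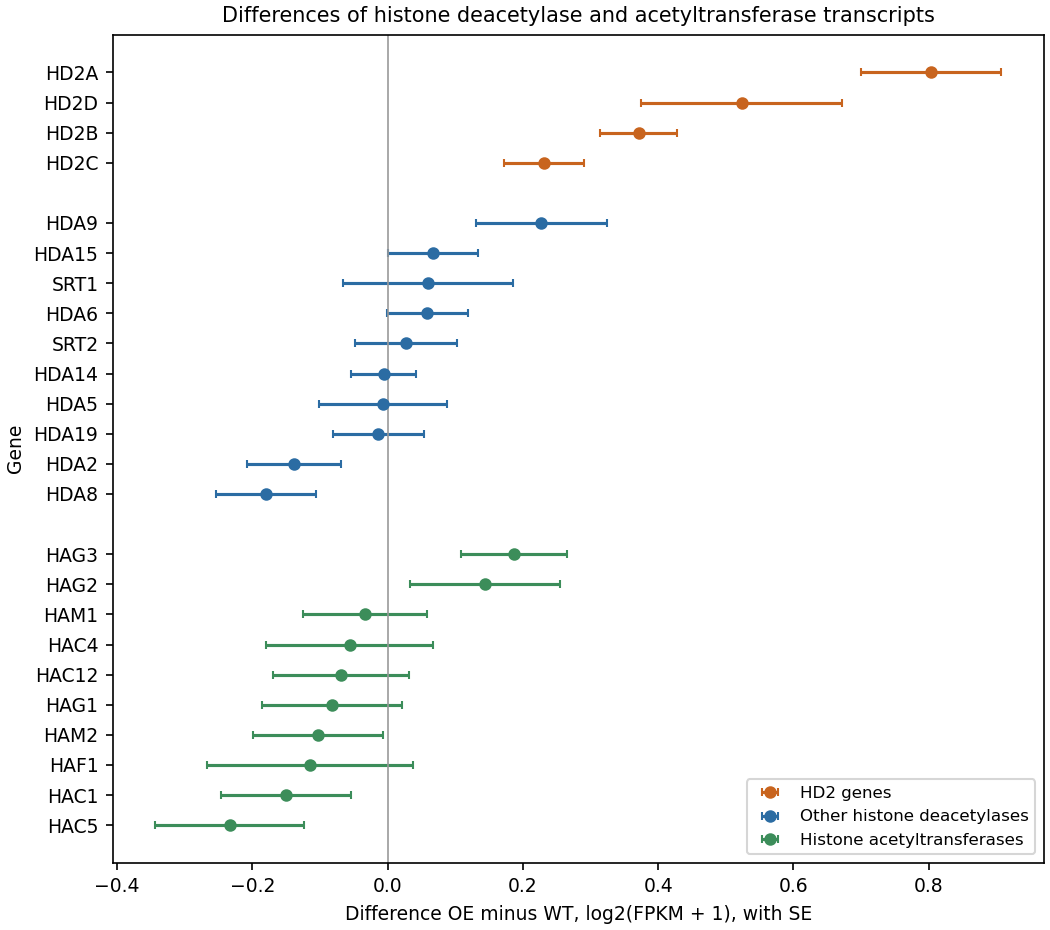
Differences between OE and WT on the log2(FPKM + 1) scale with their SE, for the HD2 genes, the other tested histone deacetylases and the tested histone acetyltransferases. The HD2 genes lie between 0.23 and 0.80, and the other deacetylases between -0.18 and 0.23.

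A chosen list of reported HD2 protein partners held 9 genes, all tested. Of these, 2 rose and 0 fell, beside 2.37% higher among all tested genes. Their median log2 difference was 0.06. This list too was chosen with earlier results of these data known, so its count is no independent evidence. Both that rose encode S6 of the small ribosomal subunit, reported as a partner of HD2B. RPS6A rose from 349 ± 30.4 FPKM in WT to 480 ± 19.0 in OE (SD, n = 5; log2 0.46, SE 0.06, limma adjusted p = 0.00784) and RPS6B from 329 ± 17.5 to 436 ± 26.4 FPKM (limma adjusted p = 0.00784; log2 0.41, SE 0.06). The other partners beside HDA6 and HDA19 did not pass: the chromatin remodeller BRM had 9.36 ± 0.877 and 8.44 ± 1.97 FPKM (log2 -0.16, limma adjusted p = 0.651), its companion SWI3B 16.9 ± 1.7 and 16.2 ± 0.364 FPKM, and the WD40 protein HOS15, of cold signalling, 13.0 ± 1.32 and 11.7 ± 1.91 FPKM. AS1, a leaf polarity factor, had 15.9 ± 2.14 and 16.8 ± 1.41 FPKM, and its partner AS2 1.498 ± 0.708 and 1.90 ± 0.760. Without WT replicates 2 and 4 and OE replicate 4, where no gene of the table passed, the log2 differences were 0.49 for RPS6A and 0.42 for RPS6B (limma adjusted p = 0.139 for each).

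Of 11 genes for core proteins of the nucleolus, where HD2 proteins reside, 10 were tested, 6 rose and 0 fell, beside 2.37% higher among all tested genes, with a median log2 difference of 0.48. All 10 had an unadjusted p under 0.05, beside 2682 of all 17713 tested genes. But the list was chosen with earlier results of these data known, so its count is no independent evidence. NOP10, of the RNA-protein particles that turn uridine into pseudouridine in rRNA, rose from 53.1 ± 6.40 to 87.6 ± 7.57 FPKM (SD, n = 5; log2 0.72, SE 0.09, limma adjusted p = 0.00776). FIB1, the methylase fibrillarin, went up from 98.4 ± 10.7 to 138 ± 9.24 FPKM (limma adjusted p = 0.00995; log2 0.49, SE 0.08), and GAR1, of the same particles as NOP10, from 73.9 ± 9.45 to 103 ± 6.59 (limma adjusted p = 0.0153; log2 0.48, SE 0.09). NUC1, a nucleolin of rRNA gene transcription and processing, rose from 170 ± 17.5 to 229.7 ± 26.5 FPKM (limma adjusted p = 0.0308; log2 0.43, SE 0.09). The other 2 that rose were FIB2 and NOP58A. Of the 10 fits that left out 1 library, FIB2 and NOP58A each passed in 1, NUC1 in 4, GAR1 in 9, and FIB1 and NOP10 in 10. Leaving out WT replicate 2 or 5 or OE replicate 1 or 4 brought the count to 3, leaving out OE replicate 2 to 2, and leaving out the 3 libraries of highest plastid share to 0.

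FKBP43 and FKBP53, prolyl isomerases whose start shares the nucleoplasmin fold with HD2 proteins, were both tested and neither passed. FKBP53, a histone chaperone of rRNA genes, had 9.21 ± 1.38 FPKM in WT and 13.6 ± 2.42 in OE (SD, n = 5; log2 0.51, limma adjusted p = 0.0782), and it passed in 4 of the 20 other settings. Of 8 genes reported to be under the control of HD2 proteins in stress and hormone responses, 8 were tested. By limma's adjusted p, 0 rose and 0 fell. An unadjusted p under 0.05 was reached by 2 (COR15A and COR47), beside 2682 of all 17713 tested genes. The median log2 difference of the list was 0.04. The most abundant, COR47, a dehydrin of cold and drought responses, had 135 ± 27.7 FPKM in WT and 98.3 ± 18.7 in OE (log2 -0.45, limma adjusted p = 0.242). COR15A, a cold-induced protein of the chloroplast, lay the other way, with 83.8 ± 22.6 FPKM in WT and 115.5 ± 33.0 in OE (log2 0.46, limma adjusted p = 0.330).

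Markers of dividing and meristem cells, in which nucleoli are large, were read beside the HD2 levels. Of 19 markers, 17 were tested, 1 rose and 0 fell, beside 2.37% higher among all tested genes. An unadjusted p under 0.05 was found for 3 of the 17, PCNA1, MCM4 and MCM7, beside 2682 of all 17713 tested genes. Of the 17 log2 differences, 16 were above 0, and their median was 0.17 beside 0.0032 for all tested genes. The summed level ran from 184 to 267 FPKM in WT and from 220 to 283 in OE. Among the meristem genes of the list, the stem cell genes CLV3 and WUS were at or near 0. STM, another meristem gene, was found at 3.46 ± 1.27 FPKM in WT and 3.59 ± 0.428 in OE (log2 0.10). WUS was listed at 0 in all 10 libraries, and CLV3 in all but OE replicates 1 and 2, with 0.606 and 0.723 FPKM. The marker that rose was PCNA1, the sliding clamp of DNA replication, from 17.0 ± 1.76 to 22.5 ± 2.43 FPKM (SD, n = 5; log2 0.38, SE 0.09, limma adjusted p = 0.0497). It passed in 2 of the 10 fits that left out 1 library, those without WT replicate 1 or OE replicate 5. The part of dividing cells in the HD2 differences was not tested. Leaf mesophyll markers, 6 genes, gave 0 calls by limma's adjusted p, 2 unadjusted p under 0.05 and a median log2 difference of -0.08, and the 1 tested root marker, PYK10, gave -0.06.

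The variation of the HD2 genes among libraries of a genotype, which the difference between genotypes does not enter, was compared over the 6 pairs. WT replicate 3 and OE replicate 3 were below their genotype means for all 4 genes, and WT replicate 1 and OE replicate 1 were above them for all 4. HD2A and HD2B had a Pearson r of 0.65 over the 10 libraries (exact permutation p = 0.0835, adjusted 0.136) and a Spearman rho of 0.66 (exact p = 0.0631, adjusted 0.126), and r was 0.23 without the 2 libraries farthest from the median of HD2A. HD2C and HD2D had an r of 0.62 (exact permutation p = 0.0815, adjusted 0.136) and a rho of 0.36 (exact p = 0.346, adjusted 0.398), and r was 0.65 without the 2 farthest. For HD2A and HD2D r was 0.59 (exact permutation p = 0.0847, adjusted 0.136) and rho 0.65 (exact p = 0.0577, adjusted 0.126), with r at 0.46 without the 2 farthest. HD2B and HD2D gave an r of 0.58 (exact permutation p = 0.0906, adjusted 0.136) and a rho of 0.65 (exact p = 0.0610, adjusted 0.126), with r at 0.38.

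HD2B and HD2C had an r of 0.46 (exact permutation p = 0.154, adjusted 0.185) and a rho of 0.31 (exact p = 0.398, adjusted 0.398), and r without the 2 farthest libraries was 0.30. HD2A and HD2C had the lowest, an r of 0.26 (exact permutation p = 0.431, adjusted 0.431) and a rho of 0.33 (exact p = 0.359, adjusted 0.398), with r at 0.12. None of the 6 pairs passed after adjustment. The permutations moved libraries freely within a genotype, so their p-values do not allow for a pairing of same-numbered libraries. Both values of a point come from 1 library and share its depth and composition, and the median r with all 17649 tested nuclear genes was 0.10 for HD2A, 0.25 for HD2B, 0.11 for HD2C and 0.07 for HD2D. An r above 0.5 was reached by 16.9% of these genes with HD2A, 27.5% with HD2B, 10.5% with HD2C and 21.5% with HD2D.

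**Figure D5:**
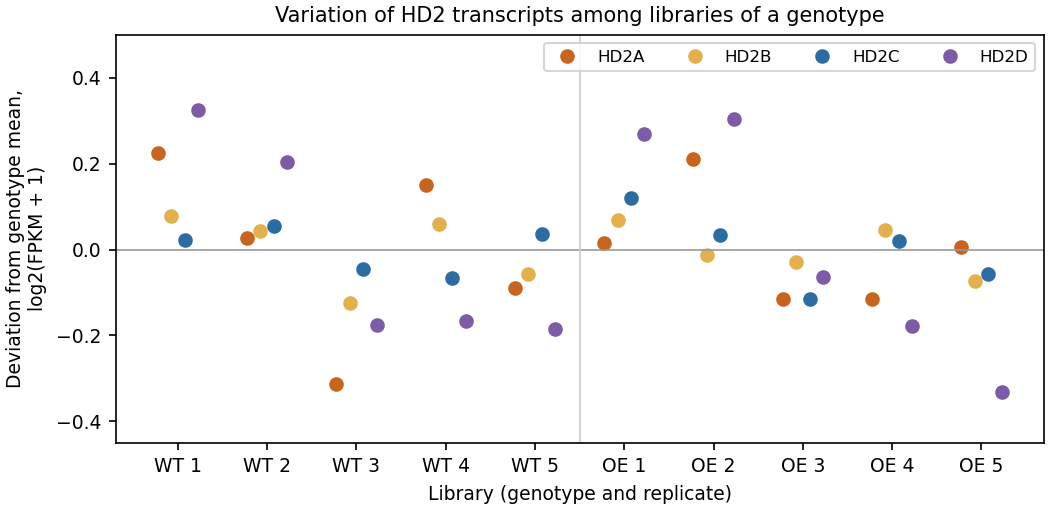
Deviation of log2(FPKM + 1) from the genotype mean in each library, with points in 1 colour per HD2 gene. HD2A and HD2D spread most, HD2B and HD2C stay within 0.124 of 0, and replicate 3 of both genotypes is below 0 for all 4.

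The genes whose variation within genotypes was most like that of each HD2 gene were found among 12517 nuclear genes with a mean of at least 5 FPKM, by the Pearson r of genotype-centred log2(FPKM + 1) over the 10 libraries. They were picked as the highest of many and carry no test. For HD2A they were DHDPS2 (AT2G45440), of lysine synthesis, at 0.97, AT4G15770 at 0.96 and DDB1B (AT4G21100), of DNA damage recognition, at 0.96. HD2B was followed most closely by RFC3 (AT3G17170) at 0.99, IQD31 (AT1G74690), a calmodulin-binding protein, at 0.98 and the transcription factor ATMYC1 (AT4G00480) at 0.98. For HD2C they were LysoPL2 (AT1G52760), a lysophospholipase, at 0.91, AT2G41040 at 0.91 and TSA1 (AT3G54640), of tryptophan synthesis, at 0.90. HD2D was followed by the protein kinase FC2 (AT4G24740) at 0.997, PCNA1 (AT1G07370) at 0.98 and NAS4 (AT1G56430), of nicotianamine synthesis, at 0.98. No other HD2 gene was near the top of these orders: the closest was HD2D for HD2C, at rank 425.

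Of the 8 direct neighbours of the HD2 genes on the chromosome, 4 were tested, among them AT3G44740, and none of these passed, while the other 4 were too weak to be tested. The gene emb1211, which ends 88 nt before HD2B, had 55.6 ± 6.05 FPKM in WT and 54.7 ± 8.89 in OE (SD, n = 5; log2 -0.03, limma adjusted p = 0.930). AT2G27830, which ends 280 nt before HD2D, had 36.6 ± 9.16 and 29.5 ± 9.83 FPKM (log2 -0.32, limma adjusted p = 0.521). CTR1, the kinase that holds ethylene signalling in check, lies 2009 nt before HD2C on the opposite strand and had 27.1 ± 6.08 and 24.6 ± 4.89 FPKM (log2 -0.13, limma adjusted p = 0.773). AT3G44753, after HD2A, had means of 0.0319 FPKM in WT and 0.0631 in OE, and the tRNA genes after HD2C and HD2D were listed at 0 in all libraries.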

How the data were processed

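RNA-seq libraries of 5 WT and 5 OE shoot samples were grouped by their titles. The deposited table holds FPKM made by the authors. Trimmomatic 0.36, kallisto 043.1, R 3.5.1, sleuth and FastQC are named, per the submitters' processing notes, with no role for any. The annotation, like the genome build, was not given in the sources used here. All 32539 nuclear identifiers matched locus tags of RefSeq TAIR10.1, which gave the coordinates and sequences; those are of that assembly.

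Genes with a mean of at least 1 FPKM over the 10 libraries (17713) were fitted with limma 3.58.1 in R 4.3.3 on log2(FPKM + 1), with a trend, two-sided, with Benjamini-Hochberg adjustment and a threshold of 0.05. This scale understates changes of weak genes. The fit was tested on simulated data. Exact permutation tests used Python 3.11.15 with scipy 1.17.1. No 2 libraries were identical.

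The members and gene lists were chosen with earlier results of these data known. Named were all HD2 genes, all other deacetylases and reported partners, list members past the threshold (at most 4 per list, smallest adjusted p first) or else the most abundant one, the 3 genes most like each HD2 gene, and the direct neighbours. Outside that rule, FIB2, NOP58A, FKBP43, HAG3, COR15A, LHCB2.1, MCM4, MCM7, CLV3, WUS and STM were named with their values known. The 20 other settings were pseudocounts of 0.1 and 0.5, no filter, a filter at 5 FPKM, quantile and median-ratio scaling, no trend, a replicate block, organelle genes left out, each library left out, and the 3 libraries of highest plastid share left out.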

Additional observations from a re-analysis of the deposited data

Results flagged for a closer look

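In 70 groups of 5 libraries of the named genes, a single library that stood apart from the other 4 by Dixon's test was looked for, and chance flags about 1 in 20 groups. HDA6 was at 15.3 FPKM in WT replicate 4, while the other WT libraries lay between 13.2 and 13.8. RPS6B, a gene for ribosomal protein S6, was at 390.0 FPKM in OE replicate 3, while the other OE libraries lay between 441 and 457. AT3G44740, which overlaps HD2A on the opposite strand, was at 4.67 FPKM in WT replicate 1, while the other WT libraries lay between 2.91 and 3.24. None of the 4 HD2 genes had such a library in either genotype.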

How the results depend on the processing

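The log2 difference ran from 0.73 to 0.89 for HD2A, 0.34 to 0.39 for HD2B, 0.20 to 0.26 for HD2C and 0.45 to 0.61 for HD2D over the 20 other settings. Which HD2 genes passed is a description from which nothing is read, since the family was chosen by this contrast: HD2A and HD2B passed in 19 settings, HD2C with the filter at 5 FPKM and HD2D with the replicate block. Calls over all genes, 512 in the reported fit, ranged from 204 (without OE replicate 2) to 534 with 1 library left out, and were 293 without WT replicate 2, 278 without WT replicate 5 and 271 without OE replicate 4. Listed genes called, 9 in the reported fit, ranged from 4 to 10 with 1 library left out. With the replicate block the counts were 781 and 15 (FKBP53, COR15A and LHCB2.1 among those gained). In that setting r was -0.90 for HD2A and HD2C, -0.29 for HD2B and HD2C and -0.068 for HD2C and HD2D. All 3 were without passing, and the cause was not tested. Each r with the block rests on only 5 differences between same-numbered libraries, not on 10 separate libraries. The numbers were not taken to pair the samples, since same-numbered libraries correlated from -0.09 to 0.20. Of the 5 WT libraries, 2, replicates 1 and 5, were most like the OE library of their number. In both genotypes, however, replicate 1 lay above and replicate 3 below the genotype mean for all HD2 genes. Replicates 2, 4 and 5 were mixed. With the block, the SE of the log2 difference went from 0.15 to 0.06 for HD2D and from 0.10 to 0.08 for HD2A. For HD2B and HD2C it went from 0.06 to 0.05. Whether the numbers pair the samples remains unsettled. Without the 3 libraries of highest plastid share, 0 HD2 genes, 0 listed genes and 0 of all genes passed, and HD2A over HD2C was 0.38, against 0.35 with all libraries; that fit has 7 libraries. NUC1 passed in 12 of the 20 settings, GAR1 in 18 and PCNA1 in 8. The table holds no counts, so what depth limits cannot be given.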
